A study of Mus musculus with 12 samples.

Results

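The 39 genes described here encode the machinery that reseals a torn or perforated plasma membrane: 22 components of the ESCRT pathway, 9 annexins, the annexin partners S100a10 and S100a11, the ferlins Dysf and Myof, the calcium sensor Syt7 and 3 calpains. They were taken by symbol from the 54232 genes of the deposited count table, and all 39 were found there. RNA was sequenced from 12 libraries of B16F10, a melanoma line from C57BL/6 mice, in 4 groups of 3. WT cells were untreated cultures. The Relapsed group held the lines ITF1, Rel and ITM, which came from B16 tumors grown under the skin that had relapsed after immunotherapy, were sorted, and were then cultured to confluency. The Lyso group was incubated for 48 hours, as the labels state it, with lysosomes derived from T cells. The study's methods describe a shorter incubation, with granules secreted by T cells, so the length of exposure behind the Lyso values is uncertain. The Tumor group (Tumor 1, Tumor 3 and Tumor 4) was sorted from relapsed tumors and its RNA was extracted at once, so that it differed from WT in the animal host, the therapy and the sort together, and these cannot be told apart. All samples carry the same strain and the age of 6 weeks in the labels. Each Relapsed library is 1 line, and the labels do not say which other libraries came from separate cultures or animals, so p-values measure only the spread between these libraries.

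Perforin and similar pore formers let calcium into the target cell, and repair begins with that calcium. Annexins bind exposed phospholipid and cap the lesion, S100 proteins bridge annexins, ferlins and synaptotagmin VII drive vesicles and lysosomes to fuse with the surface, and calpains cut the cortical skeleton at the wound. ALG-2 (Pdcd6) senses calcium and recruits ALIX (Pdcd6ip) with ESCRT-III, whose filaments pinch off the damaged patch and are then taken apart by the VPS4 ATPases. ESCRT-I and ESCRT-II are best known for sorting ubiquitinated cargo into multivesicular bodies, where they lead to the same ESCRT-III filaments.

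Counts on genes ran from 1667398 to 16402629 per library. WT 1, WT 2 and the Tumor libraries were the shallow ones, and no Tumor library exceeded 5049496. The mitochondrial share of counts was 3.75% to 4.39% in WT, 3.33% to 5.51% in Relapsed, 6.08% to 8.53% in Lyso and 2.69% to 3.10% in Tumor, so that Lyso lay above and Tumor below all WT libraries, and its part in the results was not tested. Of 10 melanocyte markers, all 10 were above 3 counts in every library, and their summed level lay between 20546 and 22660 CPM (a gene's counts scaled to a common library total) in Tumor against 19810 to 28448 in WT, with 1 of the 10 called higher and 1 lower. Markers of other cells moved with the Tumor group. Fibroblast markers summed to 7581 to 10662 CPM in Tumor and 17.3 to 24.9 in WT, with 10 of 10 genes called higher, and Lum and Thy1 were at 0 in all WT libraries. Myeloid markers summed to 49.4 to 79.1 CPM in Tumor and 12.5 to 29.3 in WT, with 7 of 10 genes called higher, and 6 of 8 endothelial markers were also called higher although their sum, 279 to 325 CPM, did not exceed the WT range of 291 to 428. Markers also moved with Lyso. Melanocyte markers summed to 29870 to 30651 CPM there, above every WT library, with 0 of 10 called. T-cell markers summed to 15.9 to 18.4 CPM there against 1.27 to 6.79 in WT, with 3 of 12 called higher. Myeloid markers, at 33.5 to 37.1 CPM with 1 called higher, and endothelial markers, at 436 to 541 CPM with 0 called, had sums above every WT library. Of the 8 endothelial markers only 2 were above 3 counts in every Lyso library. The other markers included 5 (Cdh5, Kdr, Tie1, Tek and Emcn) that were at 0 throughout Lyso. Of the fibroblast markers 1 was called higher and 1 lower in Lyso, with a sum of 12.7 to 14.4 CPM. In bulk libraries fewer cells of a type and less RNA per cell cannot be told apart, and the part of these other cells in the results below was not tested.

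Of the 39 genes, 38 passed the filter on low counts, and Anxa8 did not. Anxa3 passed it only through the Tumor libraries and Syt7 only through the Lyso libraries. Their calls in those groups, counted below, are thus not independent of the filter. A gene was called at an adjusted p under 0.05 in edgeR's quasi-likelihood test with Benjamini-Hochberg adjustment over 14924 genes. Against WT, the Tumor cells had 3 repair genes called higher (Capn6, Anxa3 and Anxa4) and 6 called lower (Snf8, Vps36, Chmp4c, Chmp5, Anxa11 and Dysf), beside 12.1% of all genes called higher and 6.94% called lower. In either direction 23.7% of the repair genes tested were called, near the 19% of all genes. The Lyso cells had 1 repair gene called higher, Syt7, and 0 called lower, where all genes had 3.5% and 1.21%. By an unadjusted p under 0.05 the count in Lyso, in either direction, was 10, and DESeq2 also called 1 higher and 0 lower. The Relapsed lines had 1 called higher, Capn6, and 0 lower. That comparison called 0.0134% of all genes higher and 0.0268% lower, an unadjusted p under 0.05 gave 3 repair genes, and DESeq2 again gave 1 higher and 0 lower. The median log2 fold change over the repair genes tested was 0.01 in Relapsed, -0.10 in Lyso and -0.08 in Tumor, against 0.01, 0.00 and 0.00 over all genes.

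**Figure D1:**
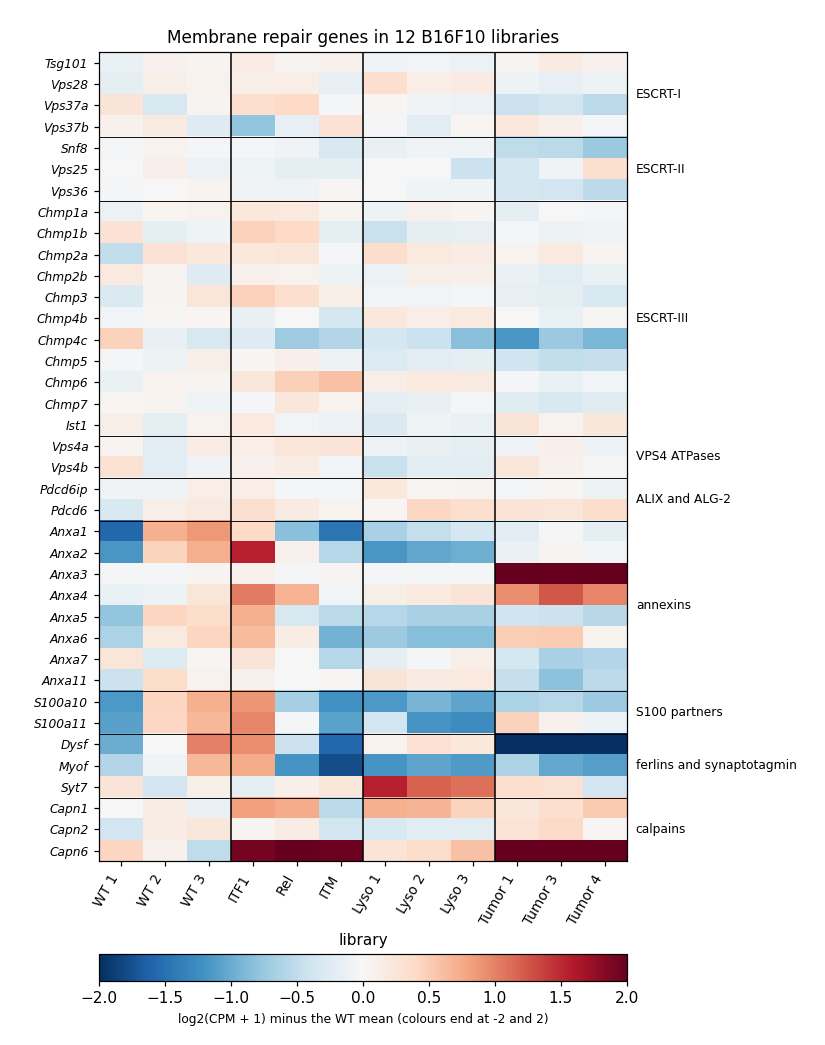
Level of the 38 genes tested in each of the 12 libraries, as log2(CPM + 1) minus the mean of the 3 WT libraries, with colours that end at -2 and 2. The ESCRT genes in the upper blocks are pale in most libraries, while the annexin, S100 and ferlin genes below them differ among the WT libraries and among the Relapsed lines.

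**Figure D2:**
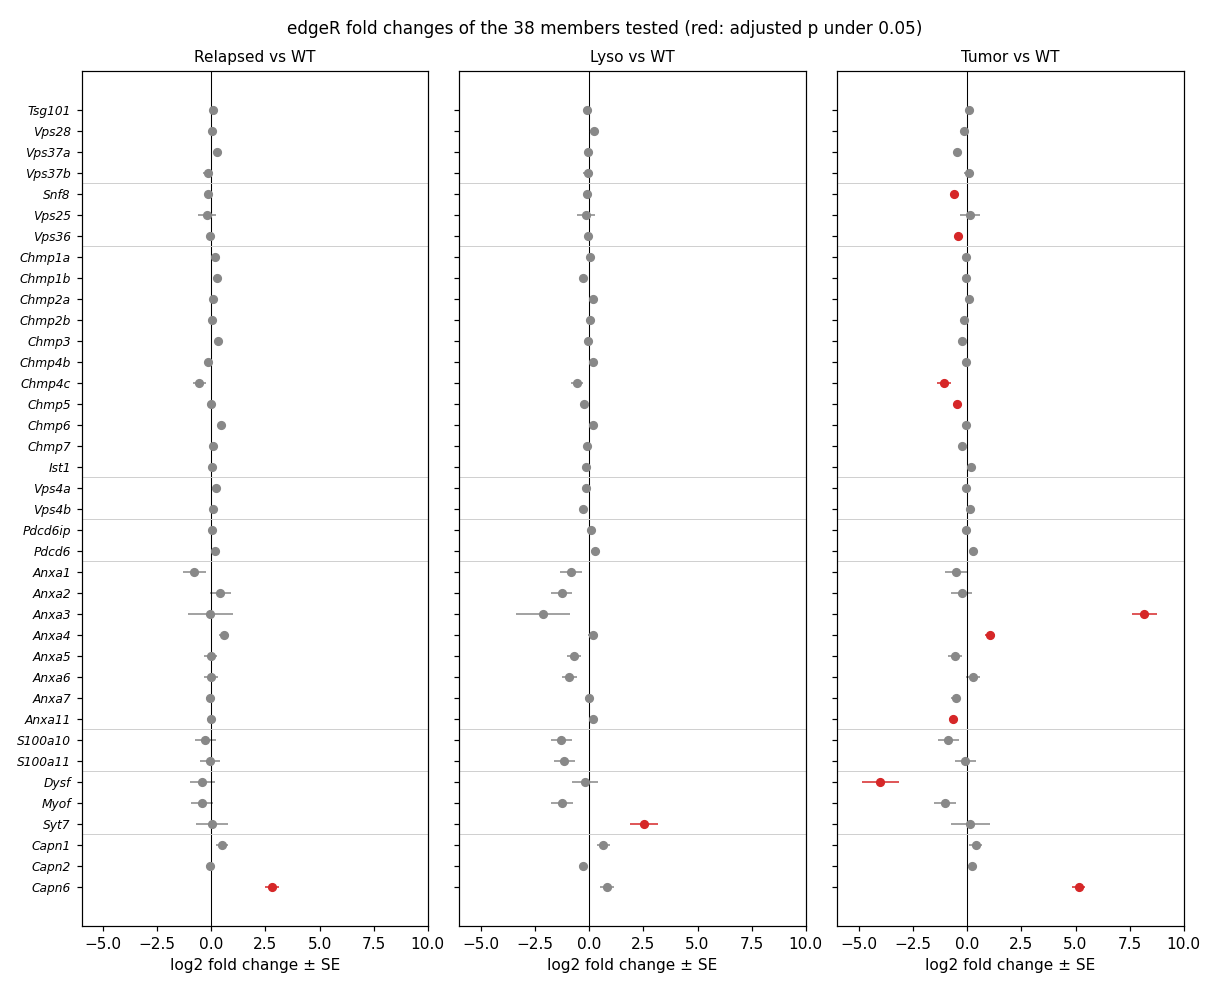
Log2 fold change with its standard error for the 38 genes tested, in the 3 comparisons with WT, with genes of adjusted p under 0.05 in red. There is 1 red point in Relapsed, 1 in Lyso and 9 in Tumor, and Anxa3 (8.18, with 1 count in WT), Capn6 (5.14) and Dysf (-4.02) lie farthest from 0 in Tumor.

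The genes differed widely in level in untreated cells. On the scale of CPM per kilobase of merged exons, the annexin Anxa5 had the highest WT level, 346 ± 138 (SD, n = 3). It was followed by Anxa2 at 113 ± 62.2 and by its partner S100a10 at 104 ± 56.7. Among ESCRT genes the ESCRT-III filament subunit Chmp4b was highest, at 90.8 ± 3.25, so that the annexins at the top of the order were also those with the wider spread. The order among Anxa2, S100a10 and Chmp4b lay within these SDs. At the other end Anxa8 was listed at 0 in WT, Anxa3 held 1 count and Syt7 stood at 0.0436 ± 0.0391. Above them came Capn6 at 0.419 ± 0.170, Vps25 at 0.678 ± 0.0988 and Chmp4c at 0.727 ± 0.249. In Vps25, 67.2% of the exonic bases are shared with Ramp2 on the same strand, so its counts are uncertain. In Tumor cells Capn6 reached 11.7 ± 0.943 on this scale, between Capn1 at 8.91 ± 0.941 and Capn2 at 26.3 ± 3.37.

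**Figure D3:**
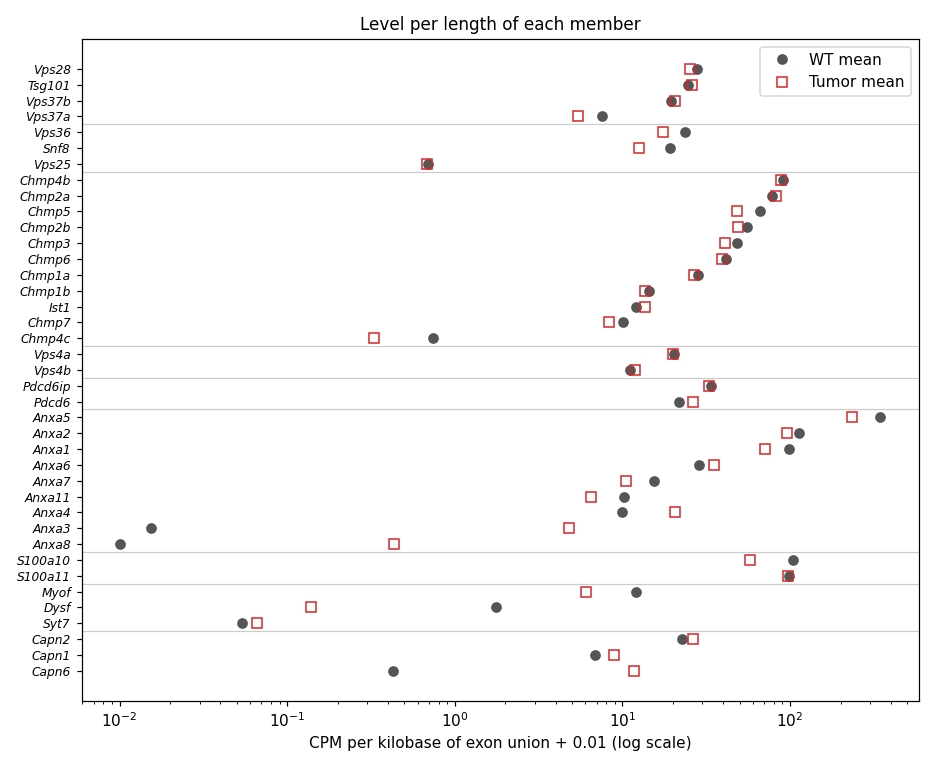
Mean level of each gene in WT (filled circles) and Tumor (open squares), as CPM per kilobase of merged exons plus 0.01 on a log axis, sorted by WT level within each role. Anxa5 is highest in WT at 346, Capn6 moves from 0.419 to 11.7 and Dysf from 1.75 to 0.129.

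Within the ESCRT pathway the log2 fold changes in Tumor ran from -1.06 to 0.25, with a median of -0.07, 15 genes below 0 and 7 above. Of 22 ESCRT genes, 0 were called higher and 4 lower against WT, and 6 of the 22 had every Tumor library below every WT library. Over all 38 repair genes tested such non-overlap was seen in 10 downward and 5 upward, with 15.1% and 21% of all genes. Snf8 (ENSMUSG00000006058, chromosome 11, 96034885 to 96047430, plus strand) and Vps36 (ENSMUSG00000031479, chromosome 8, 22192809 to 22220843, plus strand) are ESCRT-II subunits, Vps36 being the one that binds ubiquitin. Snf8 measured 49.8, 54.0 and 50.0 CPM in WT, 49.8, 48.6 and 41.4 in ITF1, Rel and ITM, 45.9, 49.0 and 48.3 in Lyso, and 35.8, 34.8 and 30.1 in Tumor. The Tumor libraries lay below the other 9 without overlap. The log2 fold change from WT to Tumor was -0.61 ± 0.12 (SE, edgeR with Benjamini-Hochberg adjusted p = 0.00315). Vps36 measured 84.3, 86.6 and 89.9 CPM in WT, 82.8, 82.4 and 88.0 in Relapsed, 86.8, 82.3 and 81.7 in Lyso, and 67.9, 66.2 and 60.5 in Tumor. Again every Tumor library was below all others, with a log2 fold change of -0.43 ± 0.10 against WT (edgeR adjusted p = 0.00808), a call lost after thinning to the smallest library (edgeR adjusted p = 0.0636). The third ESCRT-II gene, Vps25, was near 1 CPM in every group, with a log2 fold change of 0.12 ± 0.47.

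Chmp5 (ENSMUSG00000028419, chromosome 4, 40948407 to 40965303, plus strand), an ESCRT-III subunit that binds the VPS4 cofactor LIP5, measured 98.5, 92.5 and 109 CPM in WT and 101, 107 and 92.7 in Relapsed. In Lyso it measured 81.9, 84.9 and 88.2, and in Tumor 75.4, 70.7 and 72.5. The Lyso and Tumor libraries both lay below all WT libraries, and the change was called in Tumor, at -0.46 ± 0.10 (edgeR adjusted p = 0.0082), and not in Lyso, at -0.24 ± 0.10 (edgeR adjusted p = 0.235). Tumor against Lyso itself was -0.22 ± 0.10 (edgeR adjusted p = 0.135). Without WT 3 the Tumor call was lost (-0.39, edgeR adjusted p = 0.0567). Chmp4c (ENSMUSG00000027536, chromosome 3, 10366907 to 10428856, plus strand), the CHMP4 form of the abscission checkpoint in cell division, measured 10.2, 6.33 and 5.48 CPM in WT and 2.60, 3.82 and 3.30 in Tumor. Of the Relapsed lines (5.76, 3.95 and 4.37) only ITF1 lay inside the WT range. The Lyso libraries (5.37, 5.03 and 3.56) lay below it, with Lyso 3 inside the Tumor range. Its fold change in Tumor of -1.06 ± 0.33 (edgeR adjusted p = 0.039) rested on 41 counts in the Tumor libraries together and lost its call in 10 of 20 other settings, among them the fits without WT 1 (-0.81), WT 2, Lyso 2 or any 1 of the Tumor libraries.

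The other ESCRT-III, ESCRT-I, VPS4, ALIX and ALG-2 genes were not called against WT in any group. In Tumor their log2 fold changes ran from -0.47 (Vps37a) to 0.25 (Pdcd6). Pdcd6ip, which encodes ALIX, had 0.02 ± 0.11, 0.10 ± 0.11 and -0.04 ± 0.11 in Relapsed, Lyso and Tumor. Chmp4b, the main filament subunit, had -0.17 ± 0.11, 0.18 ± 0.11 and -0.04 ± 0.11. Vps4a and Vps4b had -0.04 ± 0.12 and 0.11 ± 0.14 in Tumor. In several of these genes reads cannot be assigned cleanly, since 42.5% of the exonic bases of Vps37b and 24.0% of those of Chmp1b lie opposite another gene and the strand setting of the counts was not given in the sources used here.

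Tumor cells and Relapsed lines were both sorted from relapsed tumors and only the lines were then cultured. At full depth more ESCRT genes were called between them than against WT. Of the 22, 0 were higher and 7 lower in Tumor. Over all 38 repair genes tested the count was 2 higher and 9 lower, with 11.8% and 7.74% of all genes. Besides Snf8 (-0.47 ± 0.11), Vps36 (-0.38 ± 0.09) and Chmp5 (-0.46 ± 0.10), the lower genes were Vps37a, an ESCRT-I subunit, at -0.71 ± 0.15 (edgeR adjusted p = 0.00542), and Chmp3, Chmp6 and Chmp7. Chmp6, which links ESCRT-II to ESCRT-III, was at -0.52 ± 0.11 (edgeR adjusted p = 0.0059), with 99.1, 92.0 and 96.7 CPM in Tumor below 119, 141 and 152 in Relapsed. Its WT libraries, at 92.3, 106 and 106, overlapped the Tumor range. Chmp3, a filament subunit, was at -0.54 ± 0.14 (edgeR adjusted p = 0.0149), and Chmp7, which acts at the nuclear envelope, at -0.36 ± 0.10 (edgeR adjusted p = 0.0302), a call lost in 8 of 19 other settings. Without Tumor 4 the calls of Snf8 (-0.40), Vps36 (-0.33), Chmp3 (-0.50) and Chmp7 (-0.37) between Tumor and Relapsed were lost, and that of Chmp7 was also lost without Rel, Lyso 2, Tumor 1 or Tumor 3. After thinning to the smallest library the calls of Vps36, Chmp5, Chmp6 and Chmp7 between Tumor and Relapsed were lost. Their edgeR adjusted p-values were then 0.0612, 0.104, 0.116 and 0.17. Against WT the same thinning lost the calls of Vps36 and Chmp4c. Tumor against Lyso gave 1 ESCRT gene higher, Vps4b (0.40 ± 0.14, edgeR adjusted p = 0.0498, lost in 14 of 20 other settings), and 2 lower, Snf8 (-0.51 ± 0.11) and Vps36 (-0.37 ± 0.09). The Snf8 call was lost with the replicate number as a block (-0.40, edgeR adjusted p = 0.0816). That of Vps36 was lost in 4 of 20 other settings: no filter on low counts, thinning, the block and without Tumor 4 (-0.32). The Vps4b call was lost without any 1 of the Lyso or Tumor libraries, WT 3, ITF1 or Rel.

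Capn6 (ENSMUSG00000067276, chromosome X, 143802231 to 143827414, minus strand) was called in 5 of the 6 comparisons between groups. It encodes a calpain that lacks the catalytic cysteine and is known to stabilize microtubules, so it is not a protease like Capn1 and Capn2. It measured 4.53, 3.38 and 1.89 CPM in WT and 3.96, 4.29 and 5.18 in Lyso. The lines ITF1, Rel and ITM had 14.4, 25.0 and 15.04, and the Tumor libraries 86.8, 99.4 and 86.6. WT and Lyso overlapped, every Relapsed line was above both, and every Tumor library was above every Relapsed line. Relative to WT the log2 fold change came to 2.82 ± 0.32 in Relapsed (edgeR adjusted p = 0.0144) and 5.14 ± 0.32 in Tumor (edgeR adjusted p = 3.63e-07). The step from Relapsed to Tumor was itself called, at 2.32 ± 0.23 (edgeR adjusted p = 1.73e-05), and so was Lyso below Relapsed, at -2.01 ± 0.25 (edgeR adjusted p = 0.000438). Lyso against WT, at 0.81 ± 0.34, was not called (edgeR adjusted p = 0.23). The Tumor call held in all 20 other settings, with fold changes of 4.55 to 5.38. The Relapsed call was lost when only Relapsed and WT entered the fit (adjusted p = 0.61), after thinning to the smallest library (0.0564) and without WT 3 (0.162), in each with a fold change of at least 2.22. WT held 48 counts of Capn6 in all. The Relapsed lines, where Capn6 was also high, had summed fibroblast markers of 14.5 to 23.2 CPM, within or below the WT range of 17.3 to 24.9, while the Tumor libraries had 7581 or more. The part of fibroblasts in the Capn6 values was not tested. The conventional calpains were not called in any comparison of the main fit. Capn1 had 22.6, 25.3 and 20.9 CPM in WT, 38.2, 37.3 and 31.7 in Lyso and 27.0, 29.2 and 33.2 in Tumor. Neither Lyso nor Tumor overlapped WT, and the fold change in Tumor was 0.40 ± 0.30. Capn2 had 0.20 ± 0.18 in Tumor, and 27.1% of its exonic bases lie opposite another gene. Among other settings, Capn1 was called higher in Lyso than in WT in 3 of 21. Capn2 was called higher in Tumor than in Lyso in 6 of 20.

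**Figure D4:**
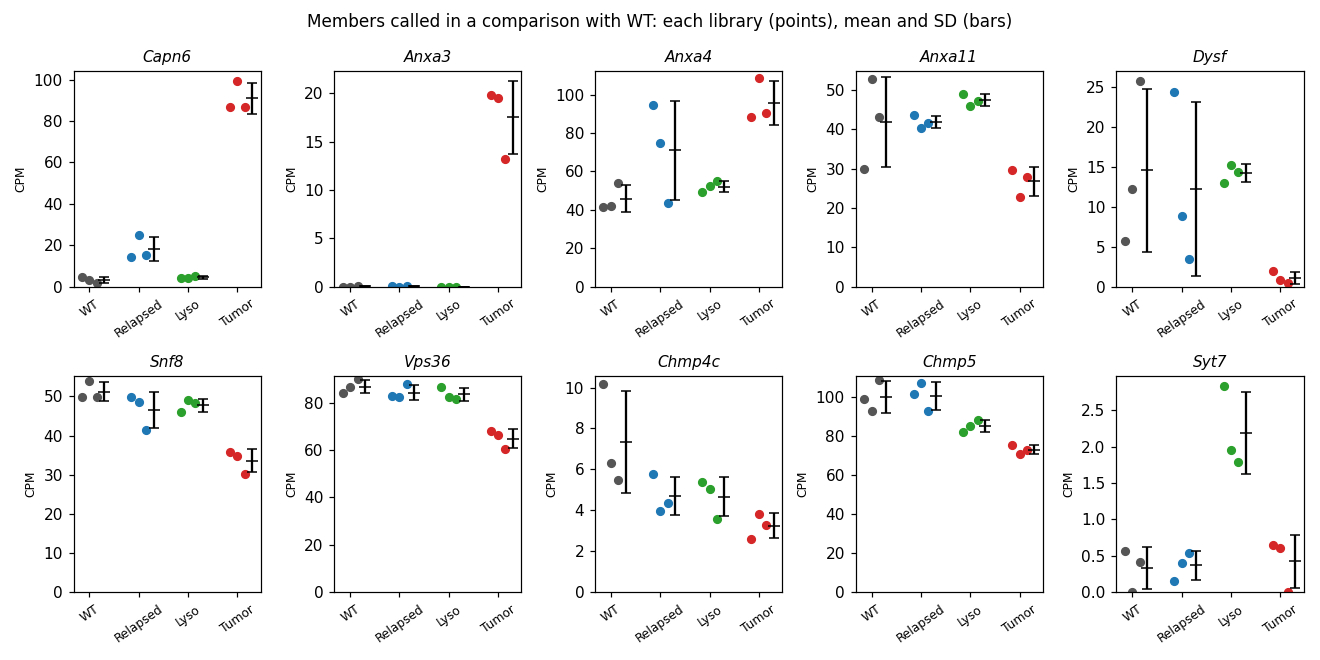
Level in CPM of the 10 repair genes called in a comparison with WT, 1 panel per gene, with a point for each library and bars for the mean and SD of 3 libraries. Capn6 lies between 86.6 and 99.4 in Tumor and below 5.2 in WT and Lyso, and Anxa3 is near 0 outside Tumor.

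Among the annexins, 2 rose and 1 fell in Tumor against WT. Anxa3 (ENSMUSG00000029484, chromosome 5, 96793339 to 96845966, plus strand), an annexin abundant in neutrophils, measured 19.8, 19.5 and 13.2 CPM in Tumor. It had 1 count in the WT libraries together, 2 in Relapsed and 0 in Lyso. By total counts the Tumor level was 367 times that of WT (95% counting interval 65.2 to 14559), 389 times that of Relapsed (106 to 3229) and at least 195 times that of Lyso, where a floor of 3 counts over the group was used, and all 3 differences were called (edgeR adjusted p = 5.58e-06, 6.97e-07 and 8.85e-07). Anxa3 was thus seen where the fibroblast and myeloid marker sums were also high. Of the endothelial markers 6 of 8 were called higher in Tumor, but their sum did not exceed the WT range. The source of Anxa3 among the cells was not tested. Anxa8 showed the same order at a level too low to test, with 9 counts in Tumor, 1 in Relapsed and 0 in WT and Lyso.

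Anxa4 (ENSMUSG00000029994, chromosome 6, 86736840 to 86793584, minus strand), which forms lattices on membranes, was present in every library. It measured 41.3, 42.2 and 54.1 CPM in WT, 49.3, 52.3 and 54.8 in Lyso and 88.1, 109 and 90.4 in Tumor. The Tumor libraries did not overlap WT or Lyso, and the log2 fold change was 1.04 ± 0.23 against WT (edgeR adjusted p = 0.00744) and 0.88 ± 0.22 against Lyso (edgeR adjusted p = 0.012). The call against Lyso was lost without Lyso 1 (0.84) or Tumor 3 (0.78). The Relapsed lines were spread over the whole range, from 43.7 in ITM through 74.6 in Rel to 94.8 in ITF1, and Relapsed was not called against WT (0.60 ± 0.23, edgeR adjusted p = 0.362) or against Tumor (Tumor higher by 0.43 ± 0.22, edgeR adjusted p = 0.194).

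Anxa11 (ENSMUSG00000021866, chromosome 14, 25842156 to 25886804, plus strand), an annexin that binds ALG-2, moved the other way. It measured 30.0, 52.8 and 43.2 CPM in WT, 43.6, 40.5 and 41.6 in Relapsed and 49.1, 46.0 and 47.2 in Lyso, against 29.6, 22.7 and 28.0 in Tumor. Tumor lay below every other library, with WT 1 closest to it. The fold change was -0.67 ± 0.17 against WT (edgeR adjusted p = 0.0168), -0.65 ± 0.17 against Relapsed (edgeR adjusted p = 0.0151) and -0.83 ± 0.17 against Lyso (edgeR adjusted p = 0.00295). The call against WT was lost in 6 of 21 other settings, among them the fits without WT 2, WT 3 or Tumor 3 (fold changes of -0.51, -0.65 and -0.56), that against Relapsed without Tumor 3 (-0.56), and the call against Lyso held in all 20.

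Dysf (ENSMUSG00000033788, chromosome 6, 84008590 to 84211060, plus strand) encodes dysferlin, the vesicle fusion protein whose loss causes a muscular dystrophy with defective membrane resealing. Its level was 5.66, 12.2 and 25.7 CPM in WT, 24.3, 8.84 and 3.48 in ITF1, Rel and ITM, and 13.01, 15.2 and 14.3 in Lyso. In Tumor it was 1.95, 0.805 and 0.471, or 12 counts in all against 475 in WT. Despite the wide WT and Relapsed ranges the Tumor libraries overlapped neither. The log2 fold change was -4.02 ± 0.86 against WT (edgeR adjusted p = 0.00591), -3.60 ± 0.86 against Relapsed (edgeR adjusted p = 0.0103) and -3.82 ± 0.85 against Lyso (edgeR adjusted p = 0.00572). The call against WT held in all 20 other settings, with fold changes of -4.62 to -3.20, and the call against Relapsed was lost without Tumor 3 (-3.45) or Tumor 4 (-3.25). The melanocyte marker sum of the Tumor libraries lay within the WT range, with 1 of the 10 markers called lower and 1 higher, and the part of the share of melanoma cells was not tested. Its relative Myof, which encodes myoferlin, was not called in any comparison. Myof measured 95.1, 135 and 225 CPM in WT and 93.0, 69.4 and 66.1 in Tumor, a fold change of -1.02 ± 0.52 (edgeR adjusted p = 0.196).

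Syt7 (ENSMUSG00000024743, chromosome 19, 10389090 to 10453180, plus strand), the calcium sensor of lysosome exocytosis, was the repair gene called after incubation with T-cell lysosomes. It measured 2.83, 1.96 and 1.78 CPM in Lyso, against 0.566, 0 and 0.413 in WT, 0.154, 0.402 and 0.539 in Relapsed and 0.650, 0.604 and 0 in Tumor. The Lyso libraries were above all 9 others. By total counts, 73 in Lyso and 8 in WT, the ratio was 5.71 (95% counting interval 2.75 to 13.7). The fitted change was 2.53 ± 0.64 against WT (edgeR adjusted p = 0.0413) and 2.50 ± 0.51 against Relapsed (edgeR adjusted p = 0.0101), and that of Tumor against Lyso was -2.38 ± 0.66 (edgeR adjusted p = 0.0196). The call against WT was lost in 9 of 18 other settings, among them the fits that left out any 1 of the WT or Lyso libraries or Tumor 1 or Tumor 3, with fold changes of 2.29 to 3.10 throughout. The calls against Relapsed (2.26) and Tumor (-2.16) were lost without Lyso 1, and that against Tumor also without Tumor 4 (-1.79). T-cell marker genes, which were up in the same Lyso libraries, summed to 15.9 to 18.4 CPM there, and their part in the Syt7 result was not tested.

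The annexin, S100 and ferlin genes stood out by how much they varied between libraries of 1 group, a pattern that was looked at after the values were seen. Over genes with a mean of at least 10 CPM, the highest WT library exceeded the lowest by a median of 1.24-fold in 20 ESCRT genes and by 2.35-fold in 14 annexin, S100, ferlin and calpain genes, against 1.36-fold over 9841 genes. A spread of 2-fold or more was seen in 0 of the 20 ESCRT genes, in 9 of those 14 and in 13.6% of all genes. The calpain Capn6 was among these 9, at 4.53, 3.38 and 1.89 CPM in WT on 8, 8 and 32 counts. It passed the minimum mean only through its Tumor libraries, so its WT spread adds nothing for annexin, S100 or ferlin genes. Among the Relapsed lines the medians were 1.20-fold and 2.85-fold, with 1 of 20 and 10 of 14 genes at 2-fold or more and 10.2% of all genes. In Lyso the medians were 1.12-fold and 1.15-fold and in Tumor 1.10-fold and 1.24-fold, so the 2 sets differed little there.

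In WT, 1 library stood low. Anxa1, a phospholipid-binding protein that is itself a calpain substrate, measured 75.9 CPM in WT 1 against 375 and 414 in WT 2 and WT 3. Anxa2, which with S100a10 forms a tetramer that bridges membranes, measured 162, 499 and 608. S100a10 went with it at 49.2, 149 and 181. In all, 6 of 34 repair genes (Anxa1, Anxa2, Anxa5, S100a10, S100a11 and Dysf) were in WT 1 at less than 1/2 of their level in both other WT libraries, where 3.62% of 9841 genes were, and 0 of 34 were above 2 times both, where 2.9% of genes were. WT 1 was also the shallowest library, at 1667398 counts, and the part of depth or culture in this was not tested. Thinning every library to that depth left the fold change of Anxa2 in Lyso against WT at -1.21 (edgeR adjusted p = 0.207).

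Among the Relapsed lines the same genes were ordered by line. Anxa2 measured 1074 CPM in ITF1, 389 in Rel and 246 in ITM. Anxa1 (300, 128 and 83.0), S100a10 (204, 69.0 and 47.1), S100a11 (88.7, 43.3 and 20.7) and Myof (240, 62.1 and 41.0) had the same order. It was shared, at more than 2-fold between ITF1 and ITM, by 10 of 34 repair genes against 3.65% of all genes, and 1 gene, Vps37b, had the opposite order against 1.47%. Since each line was sequenced in 1 library, differences between lines and between libraries cannot be told apart. The SE of the fold change between Relapsed and WT was 0.48 for Anxa2 and for S100a10, against 0.11 for Chmp4b and for Pdcd6ip.

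**Figure D5:**
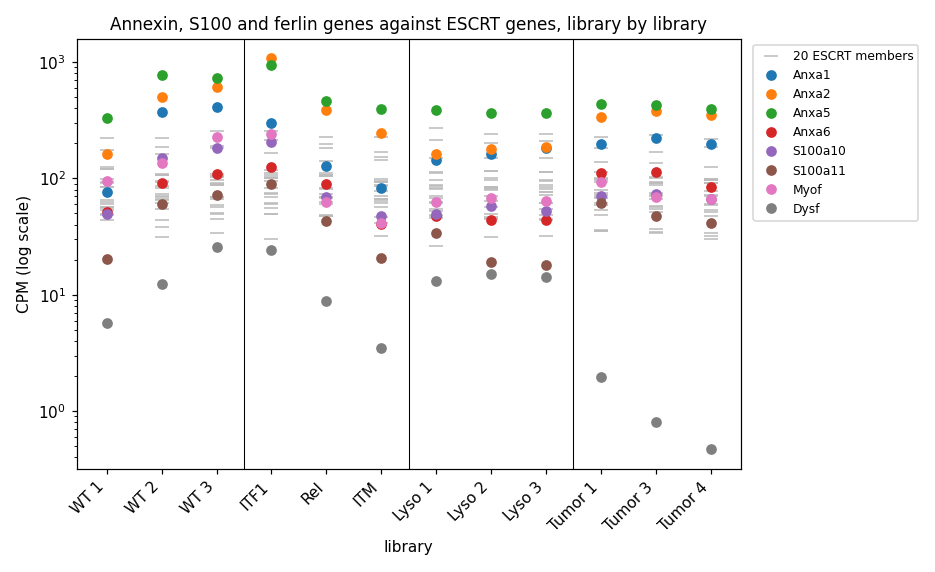
Level in CPM, on a log axis, of 8 annexin, S100 and ferlin genes (coloured points) and 20 ESCRT genes (grey dashes) in each library. The coloured points are low in WT 1 and ITM, high in WT 3 and ITF1, and lie close together across the 3 Lyso libraries, while the grey dashes keep their positions.

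In Lyso those annexin and S100 genes sat in the lower part of the WT range or below it, and none was called. Anxa2 measured 163, 178 and 186 CPM in Lyso, just above the 162 of WT 1 and far below the 499 and 608 of WT 2 and WT 3, with a log2 fold change of -1.28 ± 0.49 (edgeR adjusted p = 0.18). S100a10 was at -1.29 ± 0.49, Myof at -1.25 ± 0.51, S100a11 at -1.16 ± 0.49, Anxa6 at -0.92 ± 0.34, Anxa1 at -0.84 ± 0.51 and Anxa5 at -0.72 ± 0.32, with edgeR adjusted p-values from 0.159 to 0.415. Without WT 1, Anxa2 (-1.66), Anxa5 (-1.01) and S100a10 (-1.65) were called lower. With no filter on low counts all 7 were called lower at nearly the same fold changes. Anxa6, a large annexin of caps at wound sites, was called between Tumor and Lyso (1.20 ± 0.34, edgeR adjusted p = 0.0205), with 112, 114 and 84.3 CPM in Tumor above 47.8, 43.8 and 44.0 in Lyso. That call was lost in 5 of 20 other settings, the fits without Lyso 1, Lyso 2, Lyso 3, Tumor 1 or Tumor 3, with fold changes of 1.12 to 1.35 throughout. Over all repair genes Tumor against Lyso gave 5 higher and 5 lower, with 14.2% and 10.5% of all genes, and Lyso against Relapsed gave 1 higher (Syt7) and 1 lower (Capn6), with 4.87% and 2.81%.

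The sequence just upstream of the start site is shown for 5 of these genes: Capn6, Anxa4 and Dysf because they changed most or most firmly in Tumor among the genes with an entry, and Anxa2 and S100a11 because they moved together between libraries. The 250 bases come from the RefSeq promoters of GRCm38.p6, read 5′ to 3′ on the strand of the gene, and capitals mark matches to the AP-1 motif TGANTCA on either strand.
Capn6, chrX:143827413-143827662, minus strand: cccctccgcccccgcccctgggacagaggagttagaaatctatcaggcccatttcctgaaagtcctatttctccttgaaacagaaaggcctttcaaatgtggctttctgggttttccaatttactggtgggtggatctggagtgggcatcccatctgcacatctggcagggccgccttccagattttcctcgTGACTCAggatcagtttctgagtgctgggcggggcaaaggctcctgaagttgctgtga
Anxa2, chr9:69453433-69453682, plus strand: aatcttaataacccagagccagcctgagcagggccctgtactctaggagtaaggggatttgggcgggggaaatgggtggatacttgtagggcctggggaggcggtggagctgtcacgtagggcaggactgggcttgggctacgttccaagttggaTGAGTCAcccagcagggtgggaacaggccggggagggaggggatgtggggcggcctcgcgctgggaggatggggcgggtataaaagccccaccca
S100a11, chr3:93520246-93520495, plus strand: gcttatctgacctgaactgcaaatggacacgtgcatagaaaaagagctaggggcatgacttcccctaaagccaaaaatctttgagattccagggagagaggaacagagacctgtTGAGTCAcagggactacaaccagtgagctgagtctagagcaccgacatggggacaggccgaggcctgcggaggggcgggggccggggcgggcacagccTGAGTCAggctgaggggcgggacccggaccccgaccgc
Dysf, chr6:84008348-84008597, plus strand: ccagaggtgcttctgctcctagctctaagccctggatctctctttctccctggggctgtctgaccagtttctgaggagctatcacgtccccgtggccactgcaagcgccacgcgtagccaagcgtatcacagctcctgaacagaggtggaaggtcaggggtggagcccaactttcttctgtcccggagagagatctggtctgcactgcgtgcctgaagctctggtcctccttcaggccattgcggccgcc
Anxa4, chr6:86793585-86793834, minus strand: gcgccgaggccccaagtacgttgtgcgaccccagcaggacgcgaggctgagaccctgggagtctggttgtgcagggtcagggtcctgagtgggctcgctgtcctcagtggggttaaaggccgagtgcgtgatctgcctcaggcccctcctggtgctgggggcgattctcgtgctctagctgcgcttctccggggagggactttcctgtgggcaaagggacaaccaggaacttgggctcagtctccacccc
Capn6 and Anxa2 held 1 match each, S100a11 held 2, and these letters were not in the windows of Dysf and Anxa4. Of 39 repair genes 27 had an entry, and 5 of the 27 (Anxa2, Capn2, Capn6, Ist1 and S100a11) held the motif, against 6.75% of 32851 entries. Other motifs were searched the same way on both strands. TTCNNNGAA, a STAT motif, was in 0 of 27 and in 7.02% of entries, CATGTG, the MITF motif of melanocytes, in 2 (Anxa7 and Vps4b) and 12.3%, GGAATG, a TEAD motif, in 3 (Anxa1, Chmp2a and Chmp4b) and 12.6%, and TATAAA in 2 (Anxa1 and Anxa2) and 12.4%. Each motif was counted on its own, so matches to different motifs may overlap. The AP-1 match of Capn6 begins 58 bases before the start site.

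A wider list of 52 repair and ESCRT genes outside the 39 was read beside them, of which 51 were in the table and 42 were tested. Against WT, Tumor had 3 called higher and 2 lower, Lyso 1 and 1, and Relapsed 0 and 0. Of all genes, 12.1% and 6.94% were called in Tumor and 3.5% and 1.21% in Lyso. Cavin3, a coat protein of caveolae, had 54, 47 and 48 counts in the Tumor libraries and 0 in the other 9, so that its level was at least 85.2 times that of WT with a floor of 3 counts (edgeR adjusted p = 0.000522). Like Anxa3 it passed the filter on low counts only through Tumor, and it was seen where the fibroblast markers were. S100a16 measured 29.9, 25.2 and 21.2 CPM in Tumor against 1.70, 4.22 and 3.48 in WT (2.93 ± 0.38, edgeR adjusted p = 0.000203). Cavin2, another caveolar coat protein, fell in both groups, with a log2 fold change of -1.20 ± 0.15 in Tumor (edgeR adjusted p = 0.000122) and -0.61 ± 0.14 in Lyso (edgeR adjusted p = 0.0247). Mitd1, an ESCRT-III binding protein of abscission, was the gene that moved in opposite directions, at 11.4, 18.9 and 25.0 CPM in Tumor, 30.0, 29.6 and 51.0 in WT and 68.3, 79.5 and 77.6 in Lyso. Its fold change was -1.04 ± 0.27 in Tumor (edgeR adjusted p = 0.0157) and 0.97 ± 0.25 in Lyso (edgeR adjusted p = 0.0424), and the difference between Tumor and Lyso, -2.01 ± 0.26, was called (edgeR adjusted p = 0.000141). Sdcbp, which encodes the ALIX partner syntenin, was higher in Tumor by 0.52 ± 0.16 (edgeR adjusted p = 0.0388).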

How the data were processed

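RNA from 12 B16F10 libraries was sequenced after mRNA selection. Per the submitters' processing notes the authors used fastp 0.19.6, STAR 2.7.1a and DESeq2 1.24.0 with GRCm38 (mm10), and deposited raw counts per gene, 1 column per library, without normalization. Genes took 36.17% to 39.36% of a library's reads, 43.53% to 44.77% lay on no feature and 11.35% to 14.91% matched several places. The 4 entries for such reads were left out of library sizes and tests. Multimapping reads were not counted, which lowers genes with close copies, and S100a11 and Tsg101 have an annotated pseudogene. The strand setting and annotation release were not given in the sources used here. Symbols and positions are from GENCODE M21, upstream sequences from RefSeq.

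Genes were tested by the quasi-likelihood functions of edgeR 4.0.16 under R 4.3.3 (TMM, filterByExpr by group) in 1 fit of all 12 libraries, with Benjamini-Hochberg adjustment over 14924 genes and a call at an adjusted p under 0.05. CPM used the TMM library sizes. Each SE is the absolute log2 fold change divided by the root of the F statistic. The script was tested on simulated data. Intervals of count ratios are 95% exact binomial intervals and, like the floor of 3 counts, cover counting error only. The 3 comparisons with WT share its libraries, and all 3 differences between the other groups were tested directly. Replicate libraries differed by more than sampling noise, with a chi-square per degree of freedom of at least 1.59. The 39 genes and the other lists were chosen with earlier results of these data known. All 39 could be named, in the order of their roles. Values in every library were given for those called against WT, and from the list of 52 genes the called ones with the smallest p in each comparison with WT. Genes shown for their spread between libraries were chosen after their values were seen. Alternatives were DESeq2 1.42.0, other size factors, other filters, an added minimum of 1 on the absolute log2 fold change, fits of 2 groups, thinning to 1667398 counts, other WT controls, a replicate block and leaving out each library.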

Additional observations from a re-analysis of the deposited data

How the results depend on the processing

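No called repair gene changed direction under any alternative. Over the repair genes 81 values lost a call, 99 gained one and 4342 were unchanged. The unchanged values include levels per kilobase, to which no threshold on p applies. Most of the others were called neither in the main fit nor in the alternative. Only values called in the main fit could lose a call, so these totals do not give the share of calls that held. Genes of the wider list were not tested under the alternatives. The counts of called repair genes (higher and lower) were less steady. For Relapsed against WT, with 1 and 0, the higher count was 2 with no filter on low counts and 0 with at least 10 counts in every library (Capn6 was not tested there), with only the 2 groups or after thinning. For Lyso against WT, with 1 and 0, no filter gave 7 lower, only the 2 groups gave 2 and 1, the replicate block gave 1 lower, and a minimum of 10 counts, thinning, or WT 3 as the only control gave 0 higher. For Tumor against WT, with 3 and 6, the lower count was 2 with a fold change minimum, 11 with no filter and 1 with the block, and the higher count was 1 with a minimum of 10 counts. For Tumor against Lyso, with 5 and 5, DESeq2 gave 8 higher, only the 2 groups 11 and 11, a fold change minimum 3 and 2, a minimum of 10 counts 3 and 3, thinning 3 lower and the block 2 lower. For Tumor against Relapsed, with 2 and 9, a fold change minimum gave 1 lower, a minimum of 10 counts 1 higher and thinning 4 lower. For Lyso against Relapsed, with 1 and 1, DESeq2 gave 2 and 3, library size alone 3 lower, no filter 8 lower, and a minimum of 10 counts or thinning 0 higher. Leaving out 1 library gave 0 to 3 higher and 0 to 1 lower for Relapsed against WT, 0 to 2 and 0 to 3 for Lyso against WT, 3 to 3 and 4 to 8 for Tumor against WT, 2 to 7 and 3 to 8 for Tumor against Lyso, 2 to 3 and 4 to 12 for Tumor against Relapsed, and 0 to 2 and 1 to 6 for Lyso against Relapsed. The cause of these shifts was not tested, except that a minimum of 10 counts removes the low genes and thinning removes counts.

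Same-numbered WT, Lyso and Tumor libraries deviated from their group means with correlations of -0.015 to 0.1. Libraries of unlike number had correlations of -0.086 to 0.097. Such values cannot tell whether same-numbered libraries were prepared together, and the Relapsed lines carry no such number. Under the block Vps36 (edgeR adjusted p = 0.0883) and Snf8 (0.0511) were among the Tumor calls against WT that were lost. Levels per kilobase in WT moved by more than 1 SD for 23 of 39 genes when the longest transcript replaced the merged exons. Depth limits the genes with few counts, such as Anxa8, which was not tested, and Capn6, whose Relapsed call was lost on thinning.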

Other observations

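Some further genes of the wider repair list were called only between groups other than WT, and they are named here after their values were seen. S100a6, the S100 protein that binds Anxa11, measured 36.4, 29.0 and 21.7 CPM in Tumor and 1.51, 1.86 and 1.86 in Lyso (4.04 ± 1.03, edgeR adjusted p = 0.0126). Its WT libraries ranged from 1.13 in WT 1 to 39.7 in WT 2 and the Relapsed lines from 1.92 in ITM to 32.8 in ITF1, so that WT overlapped both Tumor and Lyso, and Relapsed overlapped Tumor and lay above Lyso, with ITM just above the highest Lyso library. Lamp1, a lysosomal membrane protein that appears on the surface after lysosome exocytosis, was lower in Tumor than in Relapsed (-0.61 ± 0.13, edgeR adjusted p = 0.00481), as was Capns1, the small subunit shared by Capn1 and Capn2 (-0.57 ± 0.14, edgeR adjusted p = 0.0141). Stx4a, a plasma membrane SNARE, was lower in Tumor than in Lyso (-0.57 ± 0.19, edgeR adjusted p = 0.0424) and than in Relapsed (-0.58 ± 0.19, edgeR adjusted p = 0.0455).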
